A study of Mus musculus with 4 samples.

Results

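The genes described here are the IGF1 axis and the IGF-binding proteins: the ligand gene Igf1, its receptor gene Igf1r, the acid-labile subunit gene Igfals and the 7 binding protein genes Igfbp1 to Igfbp7. These 10 genes were chosen by name, mapped from Ensembl identifiers without their version, among the 48526 genes of the count tables. They were read in 4 bulk RNA sequencing libraries of liver tumours from C57BL/6 mice, 2 from animals given PBS by mouth (PBS 1 and PBS 2) and 2 from animals given Akkermansia muciniphila, a mucin-degrading gut bacterium, at 5000000000 colony-forming units (AKK 1 and AKK 2). Feeding began 2 weeks ahead of an MCD diet, which lacks methionine and choline and produces fatty liver, and went on through the 2 weeks of that diet. All mice of both groups ate the diet and then had RIL-175 cells, a hepatoma line of the mouse that carried luciferase here, implanted in the liver. Bacterial feeding stopped for 6 days after the operation and was then taken up again until the end. All tumours therefore derive from 1 cell line in a fatty liver, and no tumour-free liver is among the groups. The replicates are labelled biological, but whether each tumour came from its own mouse is not stated, and p-values then reflect only how these 4 samples vary. Table names differ in pattern between the 2 groups. Were that a sign of separate cohorts, the effects of cohort and of feeding cannot be told apart.

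IGF1 is a growth hormone-dependent hormone that hepatocytes release into the blood and that macrophages and fibroblasts also make locally. It signals through the receptor tyrosine kinase IGF1R to PI3K and AKT. Most of it circulates bound to IGF-binding proteins, which lengthen its life and limit its access to the receptor. IGFBP3 or IGFBP5 forms a larger complex with IGF1 and the acid-labile subunit, whereas IGFBP1 is a small, rapidly regulated carrier that insulin represses in the liver.

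The libraries held 48912489 to 59027227 reads on genes. AKK 1 stood apart in make-up, with 3.92% of its reads on mitochondrial genes and 6.88% on ribosomal protein genes, against 1.64 to 2.33% and 3.62 to 4.36% in the other 3. Levels below are CPM, read counts per library size scaled by TMM. A library with 0 reads of a gene can still hold up to 3 reads' worth, or 0.0514 to 0.0631 CPM, and this limit covers counting error only. As a check of the tissue, 12 hepatocyte markers (albumin and other plasma protein and liver enzyme genes) summed to 2.19 and 4.50 CPM in PBS 1 and PBS 2 and to 580 and 185 CPM in AKK 1 and AKK 2. In PBS 1 the marker Apoc3 had 0 reads. The PBS tumours were thus nearly free of the transcripts that define hepatocytes.

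Across the 10 genes, expression was dominated by Igfbp3 and Igfbp4, and the widest difference between groups was in Igfbp1, which was nearly absent in PBS and present in both AKK tumours. The tests gave few calls. In edgeR's quasi-likelihood test with Benjamini-Hochberg adjustment, 0 of the 9 members that passed the filter on low counts reached an adjusted p of 0.05, where the test called 1 of 17479 genes (0.00572%). DESeq2 called 1 member, Igfbp1, as higher in AKK, against 2.07% of all genes called in that direction and 4.90% called in either. At an unadjusted p under 0.05 in edgeR, 2 members lay higher (Igfbp1 and Igfbp2) against 6.70% of all genes, and 0 lay lower against 8.62%, with 15.3% in either direction. Both AKK libraries lay above both PBS libraries in 2 members and below both in 2, where 26.7% and 24.7% of all genes did so (51.4% in either direction). Only their AKK reads brought Igfbp1 and Igfbp2 past the filter, so both had to differ, and nothing is read from these counts about the members as a set. Fewer cells of a type and less RNA per cell cannot be told apart in any of these bulk values.

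**Figure D1:**
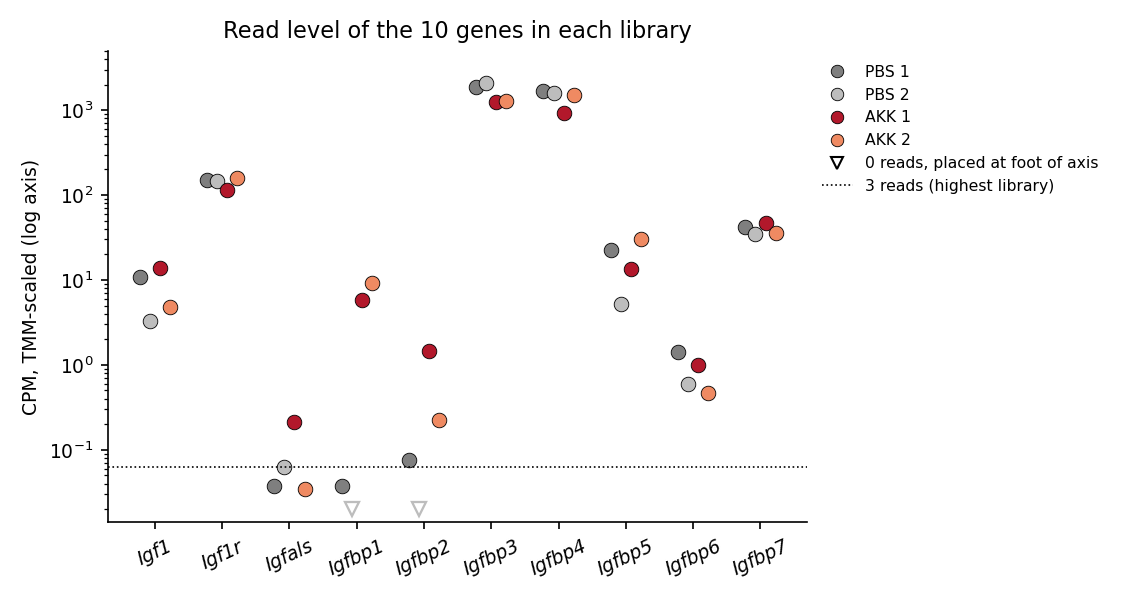
Level of each of the 10 genes (CPM, TMM-scaled, log axis) in the 2 PBS libraries (grey) and the 2 AKK libraries (red and orange); each point is 1 library, triangles at the foot of the axis mark 0 reads and the dotted line marks what 3 reads are worth in the library with the highest such value. Igfbp3 and Igfbp4 lie highest in every library, and Igfbp1 shows the widest gap, from 0.0375 CPM and 0 reads in PBS to 5.75 and 9.14 CPM in AKK.

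The binding protein IGFBP1 is secreted mainly by hepatocytes, in which insulin represses and fasting induces its gene. Igfbp1 (ENSMUSG00000020429.7) had 2 and 0 reads in the PBS pair, and 325 reads in AKK 1 against 534 in AKK 2. Both AKK tumours lay far above both PBS tumours. The summed reads gave a ratio of 377 between the groups, with a counting interval of 104 to 3119 (95%, exact, counting error only). The fitted log2 fold change (AKK minus PBS) was 8.41 (SE 0.88, n = 2 in each group, above PBS in 2 of 2) with an adjusted p of 0.151 in edgeR. The log2 fold change was 7.53 without PBS 2, and 8.70 and 8.03 without AKK 1 and AKK 2. Without PBS 1, the library with both PBS reads, it was 11.66. PBS 2 had 0 reads, so 11.66 depends on the prior count, a small number that the fit adds, and not on a measured PBS level. With all 4 libraries, the unadjusted p of Igfbp1 ranked 10 among the 17479 genes. Only its AKK reads brought Igfbp1 past the filter, so its p-values are description and not support. The adjusted p was 2.69e-11 in DESeq2, 0.0413 in the edgeR 4 form of the test, 0.000137 in edgeR without a filter on low counts and 0.215 in limma-voom. With 1 library left out, that group takes its spread from the other, so only the fold change is given here for those fits.

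IGFBP2 is a carrier that is abundant in the fetus and that adult liver secretes. Igfbp2 (ENSMUSG00000039323.18) had 4 and 0 reads in the PBS tumours, with 83 reads in AKK 1 and 13 in AKK 2. The AKK libraries lay above both PBS libraries, but AKK 1 held most of the reads. The ratio of summed reads was 21.1 with a counting interval of 7.97 to 78.9. The log2 fold change of 4.36 (SE 1.38, higher in 2 of 2) did not pass (adjusted p = 0.262 in edgeR and 0.0544 in DESeq2). It was 2.45 without AKK 1, 5.15 without AKK 2, 3.42 without PBS 2 and 8.51 without PBS 1, the library with all the PBS reads. With 0 reads in PBS 2, the value of 8.51 also depends on the prior count. Only its AKK reads brought Igfbp2 past the filter, so its p-values are description and not support.

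The acid-labile subunit, a leucine-rich repeat protein that hepatocytes release under growth hormone, was close to undetected. Igfals (ENSMUSG00000046070.8) had 2 and 3 reads in the PBS tumours, 12 in AKK 1 and 2 in AKK 2, below the filter, and the groups overlapped. The counting interval of its ratio, 0.837 to 8.72, included 1, so a difference was not detectable at this depth.

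All 12 hepatocyte markers lay above both PBS libraries in both AKK libraries (26.7% of all genes did so), next to Igfbp1 and Igfbp2. The markers held only 0 to 56 reads each in PBS 1 and 1 to 67 in PBS 2. Their part in the Igfbp1 and Igfbp2 results was not tested. The markers lay higher in AKK 1 than in AKK 2 in 12 of 12 cases, by 1.48 times (Fgb) to 14.9 times (Apoc3), with a median of 5.54. The ratio of AKK 1 to AKK 2 was 6.60 for Igfbp2, from 83 and 13 reads, with a counting interval of 3.65 to 12.9 (95%, exact). For Igfals it was 6.20, from 12 and 2 reads, with an interval of 1.38 to 57.0. Both intervals lie above 1 and are wide. Igfbp1 went the other way, with a ratio of 0.629 and an interval of 0.546 to 0.723. So did Igf1r (0.721), Igfbp3 (0.972), Igfbp4 (0.623) and Igfbp5 (0.451), whereas Igf1 (2.92), Igfbp6 (2.18) and Igfbp7 (1.32) lay above 1. Per 1000 reads of albumin, 1 of the 12 markers, Igfbp1 had 36.8 reads in AKK 1 and 361 in AKK 2, and Igfbp2 had 9.41 and 8.78. Albumin itself had a ratio of 6.15, close to that of Igfbp2. Scaled to another marker, from Fgb at 1.48 to Apoc3 at 14.9, these values would differ. Each of these ratios compares 1 library with 1 other, so there was no test.

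**Figure D2:**
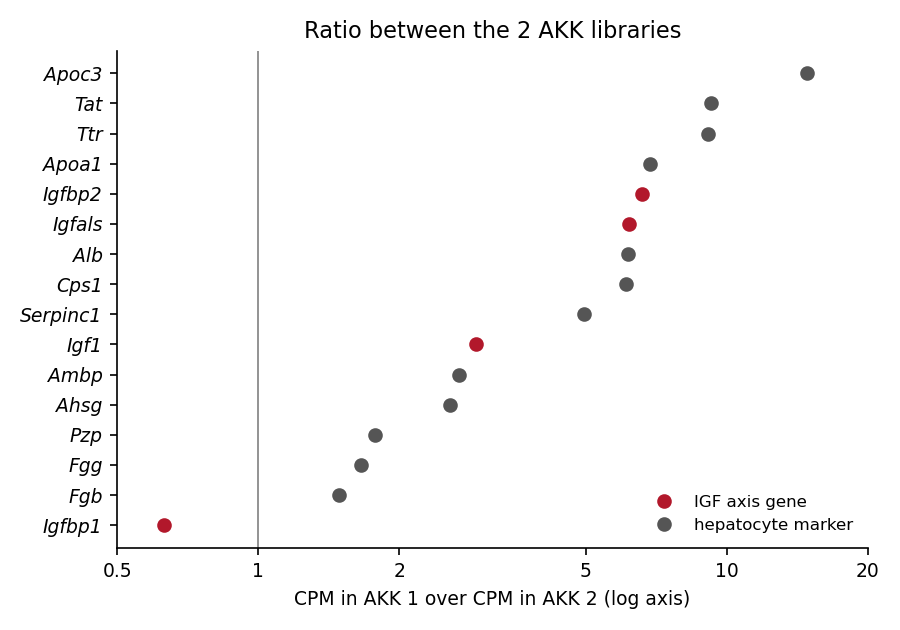
Level in AKK 1 divided by level in AKK 2 (log axis) for 4 genes of the IGF axis (red) and the 12 hepatocyte markers (grey); each point is 1 gene and the vertical line marks equal levels. Igfbp1 is the 1 gene plotted to the left of the line, at 0.629, and the markers lie between 1.48 and 14.9. Igf1r, Igfbp3, Igfbp4 and Igfbp5, which are not plotted, also had ratios below 1.

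The promoters of Igfbp1 and Igfbp2 are printed because these liver-type genes lay near 0 in PBS and had more reads in both AKK tumours. That of Igfals is printed because this liver-type gene lay near 0 in all 4 libraries, at 2 to 12 reads. The promoter of Igfbp3 is printed because that gene is the nearest protein-coding neighbour of Igfbp1. Each promoter is the 250 bases before a RefSeq start in GRCm38.p6, read on the gene's strand. The count tables do not name that build. All 10 genes had an entry, with 13 windows in all. Capitals mark matches to the motifs searched on both strands, which were the TATA box TATAAA, an HNF1 core GTTAAT, the longer HNF1 palindrome that contains it, the STAT5-type TTCNNNGAA, the FOXO-type CAAAACA, a C/EBP-type TTGCNNAA and the E-box CACGTG.
Igfbp1, chr11:7197537-7197786, plus strand: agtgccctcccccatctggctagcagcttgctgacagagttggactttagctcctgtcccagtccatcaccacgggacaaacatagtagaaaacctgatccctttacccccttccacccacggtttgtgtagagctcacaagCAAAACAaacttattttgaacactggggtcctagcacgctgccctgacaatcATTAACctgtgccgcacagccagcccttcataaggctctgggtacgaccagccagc
Igfbp2, chr1:72824230-72824479, plus strand: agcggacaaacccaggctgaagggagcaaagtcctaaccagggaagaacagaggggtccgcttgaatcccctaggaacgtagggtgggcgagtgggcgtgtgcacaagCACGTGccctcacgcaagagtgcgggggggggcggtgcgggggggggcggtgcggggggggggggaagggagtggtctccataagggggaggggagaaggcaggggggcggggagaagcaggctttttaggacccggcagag
Igfals, chr17:24877981-24878230, plus strand: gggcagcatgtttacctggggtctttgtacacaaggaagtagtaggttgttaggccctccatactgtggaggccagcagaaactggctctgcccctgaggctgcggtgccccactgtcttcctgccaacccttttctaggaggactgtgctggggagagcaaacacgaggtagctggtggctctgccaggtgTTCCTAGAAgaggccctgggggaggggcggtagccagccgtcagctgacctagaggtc
Igfbp3, chr11:7213924-7214173, minus strand: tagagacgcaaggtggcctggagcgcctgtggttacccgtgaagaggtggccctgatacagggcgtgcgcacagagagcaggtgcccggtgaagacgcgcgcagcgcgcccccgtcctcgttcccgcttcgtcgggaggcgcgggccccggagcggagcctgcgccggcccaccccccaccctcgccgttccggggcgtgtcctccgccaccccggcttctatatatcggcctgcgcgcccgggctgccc

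The Igfbp1 window held the FOXO-type letters at 108 to 102 bases before the start and the HNF1 core, on the other strand, at 56 to 51 bases. Of 32841 windows of this length, 5.56% held the first motif and 6.43% the second. FOXO proteins and HNF1 are known regulators of this gene in liver, the former repressed by insulin. The Igfals window shown, the second of 3, held the STAT5-type letters at 58 to 50 bases before the start. The first Igfals window held them at 236 to 228 bases, and the third held none of the letters searched. This motif was found in 7.02% of all windows, and searching 3 windows makes a match likelier than that. STAT5 carries the growth hormone signal to Igf1 and Igfals. The Igfbp2 window shown held an E-box (6.02% of all windows). The second Igfbp2 window and the Igfbp3 window held none of the letters searched. TATAAA (12.4% of all windows) matched in Igfbp4 on the gene's strand, 28 to 23 bases before the start. In Igfbp6 it matched on the other strand, at 148 to 143 bases. The C/EBP-type letters (9.57%) and the HNF1 palindrome (0.00913%) matched in none of the 13 windows. The windows of Igfbp3, Igfbp4, Igfbp7 and Igf1r, the 4 members with the highest level per length, had 69.2 to 77.6% G and C bases, and the other windows 49.6 to 67.2%. These are matches of letters, and no value here bears on binding.

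IGFBP3 is the main carrier of IGF1 in blood, and Igfbp3 (ENSMUSG00000020427.11) had the most reads of the 10 genes in PBS 1, PBS 2 and AKK 1. It read 1887 and 2078 CPM in PBS 1 and PBS 2 and 1238 and 1273 CPM in AKK 1 and AKK 2. Replicates lay close together, and both AKK tumours lay below both PBS tumours. Its log2 fold change was -0.66 (SE 0.27, lower in 2 of 2) with a 95% interval of -1.33 to 0.01 (unadjusted p = 0.0537, adjusted p = 0.334 in edgeR and 0.0846 in DESeq2). It stayed between -0.73 and -0.60 under every alternative run. Next to Igfbp3 on the chromosome, with 0 protein-coding genes between them in RefSeq, Igfbp1 lay in the opposite direction. Of the 8 endothelial markers 7 lay lower in both AKK libraries (24.7% of all genes did so) and 1 lay higher in both (26.7%). The 8 summed to 91.6 and 66.4 CPM in PBS and 29.8 and 31.2 CPM in AKK. Their part in the Igfbp3 value was not tested.

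IGFBP4 is a carrier that restrains IGF1 until the protease PAPP-A cleaves it. Its gene had read levels near those of Igfbp3, but per exon length it lay below Igfbp3 in each library. Igfbp4 (ENSMUSG00000017493.12) read 1673 and 1610 CPM in PBS 1 and PBS 2, 930 CPM in AKK 1 and 1493 CPM in AKK 2. AKK 1 was the low library, and AKK 2 lay just below the PBS pair. The log2 fold change was -0.44 (SE 0.33, 95% interval -1.25 to 0.37, adjusted p = 0.540 in edgeR), and -0.13 without AKK 1.

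Summed over the 7 binding protein genes, the tumours read 3626 and 3729 CPM in PBS and 2237 and 2841 CPM in AKK 1 and AKK 2. Both AKK sums lay below both PBS sums, and an exact permutation test of 2 against 2 cannot go below p = 0.333 (two-sided). Igfbp3 and Igfbp4 together held 98.2 and 98.9% of these reads in the PBS tumours and 96.9 and 97.4% in the AKK tumours. The share of Igfbp3 was 52.0 and 55.7% in the PBS tumours, 55.4% in AKK 1 and 44.8% in AKK 2. Igfbp4 took 46.1 and 43.2% in the PBS tumours, 41.6% in AKK 1 and 52.5% in AKK 2. AKK 2 was thus the 1 library in which Igfbp4 had more reads than Igfbp3. With reads divided by exon length, Igfbp3 had the larger share in AKK 2 as well, 51.8% against 43.0%. The share of Igfbp1 reached 0.257 and 0.322% in the AKK libraries, against 0.00103% and 0 reads in PBS.

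**Figure D3:**
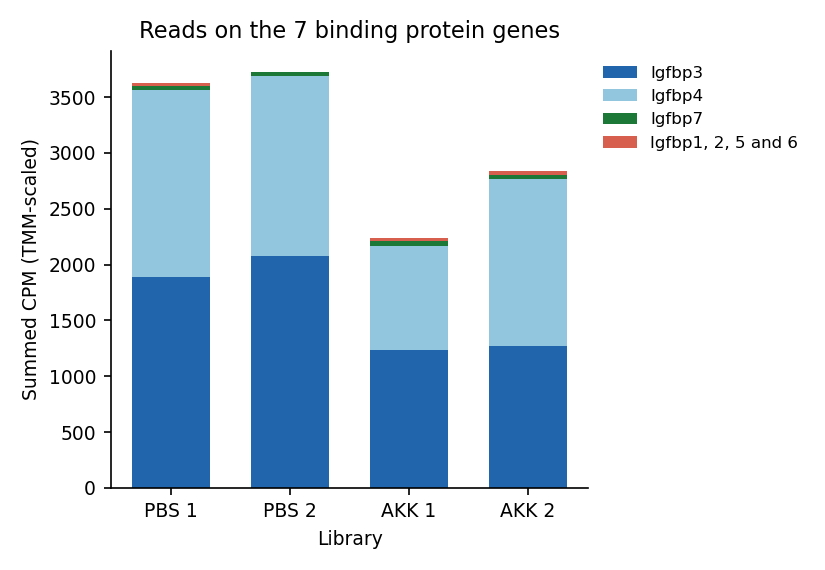
Summed level of the 7 binding protein genes in each library (CPM, TMM-scaled), stacked by gene; each bar is 1 library and has no error bar. Igfbp3 and Igfbp4 fill nearly the whole of each bar, and the AKK sums of 2237 and 2841 CPM lie below the PBS sums of 3626 and 3729 CPM.

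The ligand gene Igf1 (ENSMUSG00000020053.18) read 10.9 and 3.30 CPM in the PBS tumours, 14 CPM in AKK 1 and 4.80 CPM in AKK 2. In each group 1 library was high and 1 low, and the groups overlapped. PBS 1 exceeded PBS 2 by 3.29 times and AKK 1 exceeded AKK 2 by 2.92 times, which was more than the ratio of 1.33 between group means. Its log2 fold change was 0.41 (SE 0.71, 95% interval -1.35 to 2.17, adjusted p = 0.801 in edgeR), and its sign turned without PBS 2 (-0.25) and without AKK 1 (-0.57). The 12 hepatocyte markers summed to 2.19 and 4.50 CPM in PBS and to 580 and 185 CPM in AKK. Macrophage markers summed to 790 and 621 CPM in PBS and to 537 and 541 CPM in AKK. Markers of Kupffer cells, a macrophage type in liver, summed to 1.69 and 0.547 CPM in PBS and to 18.9 and 2.93 CPM in AKK. Like Igf1, this sum was higher in PBS 1 than in PBS 2 and in AKK 1 than in AKK 2. Of these 6 markers 5 lay higher in both AKK libraries, and the groups overlapped in Folr2. Fibroblast and stellate cell markers summed to 2146 and 769 CPM in PBS and to 991 and 1510 CPM in AKK. The part of any of these cell types in the Igf1 level was not tested.

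The receptor gene Igf1r (ENSMUSG00000005533.10) was steady, at 152 and 146 CPM in PBS 1 and PBS 2 and 113 and 157 CPM in AKK 1 and AKK 2. AKK 1 was low and AKK 2 was the highest of the 4 libraries. The log2 fold change of -0.14 (SE 0.22, adjusted p = 0.777 in edgeR) had a 95% interval of -0.69 to 0.41, and it was 0.078 without AKK 1.

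Of the remaining carriers, IGFBP5 is a matrix-bound protein made by fibroblasts and muscle. Igfbp5 (ENSMUSG00000026185.8), the nearest protein-coding neighbour of Igfbp2, read 22.4 CPM in PBS 1 against 5.24 in PBS 2, with the AKK tumours at 13.5 and 30.0 CPM. PBS 2 was the low library, as it was for the summed fibroblast and stellate cell markers. Those were highest in PBS 1 (2146 CPM), whereas Igfbp5 was highest in AKK 2. Skeletal muscle markers summed to 210 CPM in PBS 1 and 6.39 CPM in PBS 2, and to 2.30 and 2.55 CPM in AKK. The part of either cell type in the Igfbp5 value was not tested. A log2 fold change of 0.65 was fitted (SE 0.71, 95% interval -1.09 to 2.39, adjusted p = 0.670 in edgeR). It was 2.06 without PBS 1, and it turned to -0.066 without PBS 2 and to -0.037 without AKK 2.

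IGFBP6 binds IGF2 in preference to IGF1. Igfbp6 (ENSMUSG00000023046.6) was low in all tumours, at 1.41 and 0.589 CPM in PBS 1 and PBS 2 and 1.01 and 0.462 CPM in AKK 1 and AKK 2. The groups overlapped (log2 fold change -0.44, SE 0.67, adjusted p = 0.769 in edgeR), and the value was 0.31 without PBS 1 and 0.0081 without AKK 2. IGFBP7 is a related secreted protein of vessel walls with weak affinity for IGF1. Igfbp7 (ENSMUSG00000036256.13) read 42.2 and 34.9 CPM in the PBS tumours and 46.6 and 35.3 CPM in the AKK tumours. The groups overlapped, and the log2 fold change of 0.088 (SE 0.22, adjusted p = 0.866 in edgeR) had a 95% interval of -0.46 to 0.64. It was -0.074 without PBS 2 and -0.12 without AKK 1.

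**Figure D4:**
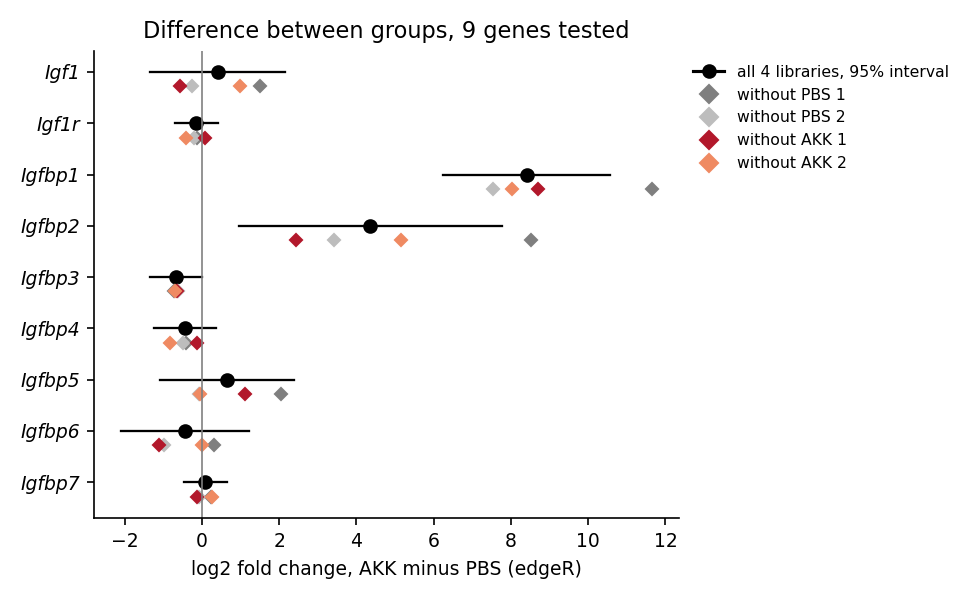
Log2 fold change (AKK minus PBS, edgeR) of the 9 genes tested, with all 4 libraries (black point, line for the 95% interval) and with each library left out in turn (diamonds). Only the intervals of Igfbp1 and Igfbp2 exclude 0 before adjustment, but only their AKK reads brought these genes past the filter, so both had to differ. The diamonds of Igf1, Igf1r, Igfbp5, Igfbp6 and Igfbp7 fall on both sides of 0.

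Levels were set side by side between genes as TPM, a level per transcript length, from reads divided by the exon length in GENCODE M21. The order from the top was Igfbp3, Igfbp4, Igfbp7 and Igf1r in each of the 4 libraries. In TPM, Igfbp3 stood at 2349, 2391, 1246 and 1427, and Igfbp4 at 1477, 1313, 663 and 1186, in PBS 1, PBS 2, AKK 1 and AKK 2. Igfbp3 ranked 35, 40, 98 and 66 among 48058 genes. Igfbp7 followed at 103 to 136 TPM and Igf1r at 21.2 to 35.3 TPM, and neither range reached its neighbours in this order, whereas the ranges of Igfbp3 and Igfbp4 over the 4 libraries overlapped. Igf1 stood seventh in every library, at 1.2 to 4.46 TPM. Igfbp1 was at most 0.0958 TPM in PBS, and in AKK it came next after Igf1r, at 11.9 and 21.0 TPM. Igfbp5, at 3.14 to 17.5 TPM, overlapped with it. Igfbp6 (1.46 to 4.93 TPM) overlapped with Igf1, and Igfbp2 was at most 2.5 TPM and Igfals at most 0.211 TPM. Igfbp1, Igfbp2 and Igfals filled the last 3 places in both PBS libraries.

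The other genes of IGF signalling were taken from 6 lists with 60 genes, of which 55 passed the filter. In edgeR 0 of them passed the adjusted threshold. At an unadjusted p under 0.05, 2 lay higher (6.70% of all genes) and 10 lower (8.62% of all genes) in AKK, and DESeq2 called 1 higher (2.07% of all genes) and 7 lower (2.83% of all genes). Their median log2 fold change was -0.22, beside 0.02 over all genes, and -0.05 without AKK 1. These lists were drawn up with earlier results of the data known.

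In the growth hormone arm, which drives Igf1 in liver, 5 of 8 genes were positive and 3 negative, and 0 had an unadjusted p under 0.05 in edgeR. Its median was 0.06, and -0.13 without AKK 2. The receptor gene Ghr read 314, 189, 228 and 244 CPM in PBS 1, PBS 2, AKK 1 and AKK 2 (log2 fold change -0.09, adjusted p = 0.898). Socs2, a feedback inhibitor that growth hormone induces, read 118, 82.3, 92.9 and 118 CPM (0.08, adjusted p = 0.898). Both genes showed more spread within groups than between them, and Ghr turned to 0.32 without PBS 1. Cish, another target of STAT5, had the smallest p of the list, at 15.1 and 18.8 CPM in PBS and 22.8 and 25.9 CPM in AKK (0.52, adjusted p = 0.346 in edgeR).

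Of the other ligand and receptors, the fetal growth factor gene Igf2 had 400 reads in PBS 1 against 33 in PBS 2, and the AKK tumours had 22 and 14 reads. PBS 1 was far above the other 3, which lay close together. This gave a log2 fold change of -3.70 (SE 1.15, adjusted p = 0.255 in edgeR and 0.00407 in DESeq2), -1.14 without PBS 1 and -4.60 without PBS 2. PBS 1 was also the library with skeletal muscle markers, whose sum was 210 CPM there and 6.39, 2.30 and 2.55 CPM in PBS 2, AKK 1 and AKK 2. The part of muscle in the Igf2 value was not tested. The insulin receptor gene Insr read 165 and 117 CPM in PBS and 91.6 and 85.9 CPM in AKK (-0.67, SE 0.23, adjusted p = 0.284 in edgeR), lower in both AKK libraries. Igf2r, which clears IGF2, overlapped between groups (-0.33, adjusted p = 0.585).

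Among 23 tested genes of the receptor adaptors and PI3K-AKT signalling, 18 were negative and 5 positive, with a median of -0.32. Both AKK libraries lay below both PBS libraries in 12 of the 23, against 24.7% of all genes. At an unadjusted p under 0.05 there were 5 lower genes (8.62% of all genes) and 0 higher (6.70%), and DESeq2 called 3 lower (2.83%). Irs2, the insulin receptor substrate that insulin represses in liver, read 31.6 and 50.9 CPM in PBS and 10.1 and 16.7 CPM in AKK (-1.62, SE 0.35, adjusted p = 0.188 in edgeR and 0.00233 in DESeq2). Grb10, an imprinted adaptor that inhibits both receptors, had 11.8 and 5.26 CPM in the PBS tumours, and AKK had 1.66 and 1.70 CPM (-2.34, SE 0.50, edgeR adjusted p = 0.187, DESeq2 0.000181). It was -1.65 without PBS 1, the higher of the PBS pair. Pdpk1, the kinase that activates AKT, stood at 116 and 124 CPM in PBS, with 55.2 and 72.1 CPM in AKK (-0.92, SE 0.21, edgeR adjusted p = 0.192, DESeq2 0.0268). In all 3 genes the AKK tumours lay below the PBS tumours. Mtor (-0.72) and Sos1 (-0.64) completed the 5, Sos1 being named after its value was seen. The median of this list was -0.21 without AKK 1 and -0.50 without AKK 2.

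Proteases that cleave binding proteins, and their regulators, differed in direction, with 5 of 9 negative and a median of -0.13, which was 0.06 without AKK 1. Mmp9 read 71.3, 15.4, 8.12 and 11.8 CPM in PBS 1, PBS 2, AKK 1 and AKK 2 (-2.12, adjusted p = 0.270 in edgeR and 0.0165 in DESeq2), -0.63 without PBS 1 and -2.87 without PBS 2. Htra3, a secreted serine protease, read 12.0 and 6.41 against 47.6 and 13.1 CPM (1.72, adjusted p = 0.302 in edgeR), and 0.51 without AKK 1. Of the proteins related to the binding protein family, 8 were tested, with a median of 0.39 that was 0.14 without PBS 2 and -0.28 without AKK 2. The matricellular gene Ccn1 read 52.3 and 50.0 CPM in PBS and 108 and 140 CPM in AKK (1.28, SE 0.20, adjusted p = 0.182 in edgeR and 0.000593 in DESeq2), higher in 2 of 2. Ccn3 (-3.39) and Igsf10 (-3.27) lay lower in both AKK libraries, where edgeR gave adjusted p-values of 0.231 and 0.182, and DESeq2 gave 0.0394 and 0.00031. Ccn3 rested on 8 and 2 reads in AKK, and its value was -2.38 without PBS 1, -4.01 without PBS 2, -4.68 without AKK 1 and -2.71 without AKK 2. The 3 IGF2 mRNA-binding protein genes, which tumours of fetal type express, were read in every library and had log2 fold changes of -0.23 to 0.19.

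**Figure D5:**
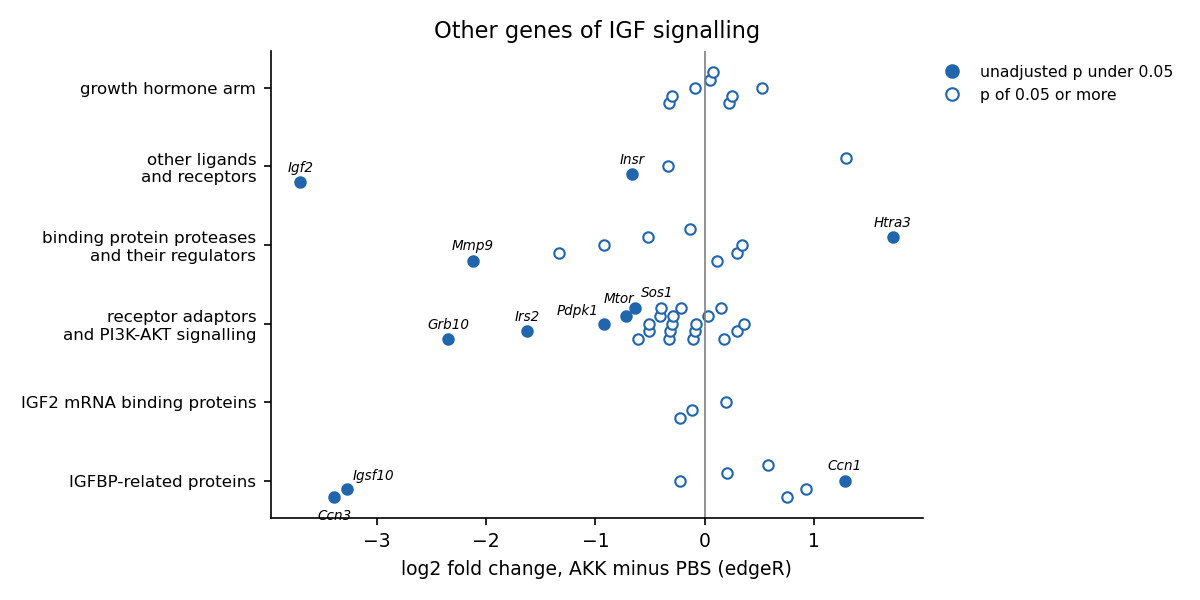
Log2 fold change (AKK minus PBS, edgeR) of the 55 tested genes of IGF signalling other than the 10 members, by list; each point is 1 gene, filled and named where the unadjusted p was under 0.05, and the vertical line marks no difference. There are 2 filled points to the right (Htra3 and Ccn1) and 10 to the left, 5 of them among the receptor adaptors and PI3K-AKT genes.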

How the data were processed

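Gene counts of 4 tumour libraries (2 PBS, 2 AKK; Illumina paired reads of 151 bp, per the labels) were used as the authors deposited them, as unnormalised read counts laid out like STAR's per-gene output. STAR 2.5.2 and RSEM 1.2.31 appear in the submitters' processing notes. Genome build and gene annotation: not given in the sources used here. Own-strand counts, 95.4 to 96.2% of the reads assigned by strand, were analysed. Rows that name no gene (27.6 to 31.4% of all reads) were left out. Symbols matched 48058 of 48526 identifiers.

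Groups were compared with edgeR 4.0.16 under R 4.3.3 (legacy glmQLFit, then glmQLFTest, two-sided, TMM, filterByExpr, group as the only term, Benjamini-Hochberg over 17479 genes, threshold 0.05). Log2 fold changes use a prior count of 0.125, and SE and intervals were derived from the F statistic. The test was checked on simulated counts. DESeq2 1.42.0, limma-voom (limma 3.58.1) and other alternatives were run as well. TPM used exon lengths of GENCODE M21, which may differ from the authors' annotation.

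The members, lists and motifs were chosen with earlier results of these data known. All members are named. Of each list, the up to 4 genes with the smallest p may be named, with Igf2, Igf2r, Insr, Ghr and Socs2 in any case. Hepatocyte, macrophage, fibroblast, endothelial and skeletal muscle marker lists are printed as sums. Kupffer cell markers summed to 1.69, 0.547, 18.9 and 2.93 CPM in PBS 1, PBS 2, AKK 1 and AKK 2, plasma cell markers to 93.6, 92.6, 181 and 142, mesothelial markers to 218, 631, 222 and 233, and cholangiocyte and epithelial markers to 1190, 2747, 2162 and 1652.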

Additional observations from a re-analysis of the deposited data

How the results depend on the processing

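The number of genes called over the whole table depended on the test: 1 in the analysis as reported, 3 with upper-quartile scaling or a threshold of 0.1, 4 with the edgeR 4 form, 631 without a filter on low counts, 916 in DESeq2, 0 in limma-voom (with an unadjusted p under 0.05 for 2677 genes in edgeR), and 0 to 324 with 1 library left out. Leaving out an AKK library gave 0 calls, and leaving out PBS 1 or PBS 2 gave 279 and 324. Among the 10 members, 0 were called as reported and 1 (Igfbp1) without a filter, in DESeq2 and in the edgeR 4 form, and 0 to 1 with a library left out. Of the other pathway genes, 0 were called as reported, 6 without a filter, 8 in DESeq2 and 0 to 3 with a library left out. A group left with 1 library took its spread from the other group.

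With the replicate number as a block, 209 genes were called over the whole table, 1 member (Igfbp1, adjusted p = 0.0109) and 1 other pathway gene. The labels give no pairing beyond this number. The deviations of replicate 1 from its group mean correlated with r = -0.037 between the groups over 17479 genes. Those genes are not independent replicates, and 1 correlation from 2 libraries per group cannot settle whether samples were paired.

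Directions turned only on leaving out 1 library. The log2 fold change then ranged from -0.57 to 1.5 for Igf1, -0.40 to 0.078 for Igf1r, -0.066 to 2.06 for Igfbp5, -1.11 to 0.31 for Igfbp6, -0.12 to 0.27 for Igfbp7, -0.44 to 0.32 for Ghr and -0.19 to 0.36 for Socs2. The difference in read share (AKK minus PBS, percentage points) ranged from -9.07 to 1.47 for Igfbp3, -3.07 to 7.88 for Igfbp4 and -0.0110 to 0.0178 for Igfbp6. Igfbp1, Igfbp2, Igfbp3 and Igfbp4 kept the sign of their log2 fold change under every alternative that gave a value. Igfals was below the filter and Igfbp2 below that of 1 CPM in 2 libraries. Depth limits Igfals most, with 2 to 12 reads per library.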
